A study of Mus musculus with 4 samples.

Results

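Among lineage-negative, CD31+ VE-cadherin+ endomucin+ Sca-1+ cells sorted from mice, 131 of 2663 met a transcript rule for Flt3-positive multipotent progenitors. The cells were selected on measured UMIs. A cell was included when it held at least 1 unique molecular identifier (UMI, 1 counted transcript molecule) of Flt3 and at least 1 of Cd34, and none of Procr or Siglech. It also had to hold fewer than 3 UMIs of Pf4 and Ppbp together, under 2% of its UMIs from Jchain, and fewer than 3 UMIs over 11 genes of dividing cells. There were 93 such cells among 1857 in the library KO_H and 38 among 806 in the library WT_H, out of 3567 cells in the 4 libraries of the series.

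The study profiled single cells of type H vessels, a capillary type of bone, and of sinusoidal endothelium with a droplet method that counts UMIs at one end of each transcript. KO_H came from mice of genotype Id1-/- Id3-/-. WT_H is titled WT but its genotype is given as Id1+/+ Id3+/-, so it carried 1 disrupted Id3 allele. Mice of both genotypes carried Cdh5-CreER, a tamoxifen-activated Cre recombinase driven by the promoter of VE-cadherin, a gene of endothelial cells, and received tamoxifen on 5 consecutive days to delete the Id1 locus. KO_S and WT_S are the Sca-1-negative, sinusoidal counterparts from the same genotypes. The labels state neither the age of the mice nor how many were pooled per library. With 1 library per genotype and gate there are no replicates, and no difference was tested. Intervals are 95% exact intervals and cover counting error only.

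Multipotent progenitors descend from haematopoietic stem cells and can form both myeloid and lymphoid blood cells, but renew themselves only for a limited time. They are recognised by gain of Flt3, the receptor for the cytokine FLT3 ligand, and by loss of stem cell markers such as Procr, the endothelial protein C receptor. Cells with the highest Flt3 protein are biased towards the lymphoid lineages and begin to transcribe lymphoid genes such as Dntt at a low level. The cells were therefore set beside 860 cells of the same gate with at least 1 Procr UMI and no Flt3 UMI, 568 in KO_H and 292 in WT_H, which met the other limits whatever their Cd34. The 2 sets are called Flt3+ cells and Procr+ cells below.

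The shares were alike in both libraries. Flt3+ cells made up 5.01% (4.06 to 6.10) of the KO_H cells and 4.71% (3.36 to 6.41) of the WT_H cells, and the intervals overlapped. Their median depth was 5664 UMIs in KO_H and 6866 UMIs in WT_H, against 5674.5 and 6305.5 UMIs in Procr+ cells of KO_H and WT_H. The sums behind the levels were 550757 UMIs over Flt3+ cells of KO_H and 269327 UMIs over those of WT_H. Flt3+ cells of both libraries came from male and female mice: 55 cells of KO_H had Y-linked but no Xist UMIs and 11 had Xist but no Y-linked UMIs, against 20 and 11 cells in WT_H, and no Flt3+ cell held both. KO_H and WT_H shared 1 barcode in all and none among Flt3+ cells.

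The gate names endothelial cells, and only part of the endothelial markers were detected. Cdh5, which encodes VE-cadherin, had 0 UMIs in the Flt3+ cells of KO_H and of WT_H, a count that leaves room for up to 3.23% of KO_H cells and 7.89% of WT_H cells with a UMI. Of 21 endothelial markers, 10 were at 0 in Flt3+ cells of KO_H and 11 in those of WT_H, with the receptor genes Kdr and Flt1 among them in both. The list summed to 468 CPM in Flt3+ cells and 619 CPM in Procr+ cells of KO_H, and to 453 CPM in Flt3+ cells and 616 CPM in Procr+ cells of WT_H, with Egfl7 as its highest member in Flt3+ cells. Pecam1 (CD31) and Emcn (endomucin) were measured in Flt3+ cells at 54.5 and 39.9 CPM in KO_H and at 55.7 and 33.4 CPM in WT_H. CPM are UMIs per 1000000 UMIs summed over the cells of a set. Ptprc, the pan-leukocyte antigen CD45, had 94.4 CPM in Flt3+ cells of KO_H and 96.5 CPM in those of WT_H.

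Flt3 lies on chr5:147330741-147400489 and Cd34 on chr1:194938819-194961279 of mm10. They chose the cells, so their levels are a description: Flt3 was 307 CPM in KO_H and 301 CPM in WT_H, and Cd34, a sialomucin of progenitors, was 448 CPM in KO_H and 423 CPM in WT_H. Of the Flt3+ cells, 59 in KO_H and 26 in WT_H held a single Flt3 UMI, and the highest cell held 11 in each library. Of cells with Flt3 and Cd34 UMIs, 137 of 266 in KO_H and 54 of 122 in WT_H had no Procr UMI. A cell can lack a Procr UMI by sampling alone, and the part of this was not tested. Sox4, a transcription factor of early progenitors, was not part of the rule. It stood at 666 CPM (600 to 738) in Flt3+ cells and 304 CPM in Procr+ cells of KO_H, and at 713 CPM (616 to 821) in Flt3+ cells and 314 CPM in Procr+ cells of WT_H. The ratio was 2.19 (1.94 to 2.48) in KO_H and 2.27 (1.92 to 2.68) in WT_H. With every cell thinned to 2000 UMIs, 65.6% of Flt3+ cells and 38.8% of Procr+ cells had a Sox4 UMI in KO_H, and 71.1% of Flt3+ cells and 40.4% of Procr+ cells in WT_H, while Jchain-rich cells of the same libraries, set apart here by a Jchain share of 2% or more, gave 2.48% in KO_H and 3.77% in WT_H. Unthinned, the Sox4 shares were 91.4% of Flt3+ cells, 62.0% of Procr+ cells and 4.97% of Jchain-rich cells in KO_H, and 94.7%, 68.2% and 5.56% of the same sets in WT_H, at a median of 7484 UMIs in Jchain-rich cells of KO_H and 7103.5 UMIs in those of WT_H. Sox4 did not choose the cells, but it was listed as a marker with earlier results of these data known. Any gene of the same cells can follow the choice, so the Sox4 level is no independent support for the label. Other cells of the gate were above Procr+ cells too. Those with Cd34 but neither Flt3 nor Procr UMIs had 448 CPM of Sox4 in KO_H and 476 CPM in WT_H. Those with Flt3, Cd34 and Procr UMIs had 562 CPM in KO_H and 443 CPM in WT_H.

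Differences between the 2 sets were counted at 1.5-fold in the same direction in both libraries, for genes with at least 20 UMIs over both sets in each. By this measure 306 of 8301 genes (3.69%) were higher and 319 (3.84%) lower in Flt3+ cells. Because UMIs of Flt3, Procr and Cd34 chose the sets, the contrast describes the choice and carries no test. The log2 ratio over all genes counted had a median of 0.06 in KO_H and 0.07 in WT_H, and list medians below are read beside these. Scaling by median of ratios in place of total UMIs moved them to -0.03 in KO_H and -0.06 in WT_H. A list's median covers the genes with enough UMIs in the library named, and its counts those with enough in both.

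Stem cell genes were lower in Flt3+ cells as a group, with exceptions. Of 27 counted of 30 on the list, 14 were lower and none was higher, and the median log2 ratio was -0.70 in KO_H and -0.72 in WT_H. Mllt3, a subunit of the super elongation complex that maintains stem cells in culture, had 136 CPM (107 to 171) in Flt3+ cells and 409 CPM (387 to 431) in Procr+ cells of KO_H, and 134 CPM (93.6 to 185) in Flt3+ cells and 420 CPM (391 to 450) in Procr+ cells of WT_H. Its ratio was 0.333 (0.261 to 0.421) in KO_H and 0.319 (0.222 to 0.445) in WT_H. Sult1a1, a sulfotransferase, had the ratio 0.177 (0.111 to 0.267) in KO_H and 0.125 (0.0455 to 0.274) in WT_H. Trim47, a ubiquitin ligase of the tripartite motif family, had 0.295 (0.216 to 0.394) in KO_H and 0.235 (0.134 to 0.386) in WT_H.

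The lower group held regulators as well as surface and signalling genes. Mecom, a transcription factor needed for stem cell self-renewal, had 81.7 CPM in Flt3+ cells and 127 CPM in Procr+ cells of KO_H, and 70.5 CPM in Flt3+ cells and 140 CPM in Procr+ cells of WT_H. Slamf1, which encodes the stem cell antigen CD150, had 2 UMIs in Flt3+ cells and 79 UMIs in Procr+ cells of KO_H, and 1 UMI in Flt3+ cells and 42 UMIs in Procr+ cells of WT_H. Cdkn1c, the cell cycle inhibitor p57, had log2 ratios of -1.32 in KO_H and -2.47 in WT_H. Gata2, Pdzk1ip1, Mycn, Esam, Hoxb5, Vwf and Tek were also among the 14.

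Hlf, a transcription factor often used to mark stem cells, did not follow. It had 447 CPM (393 to 506) in Flt3+ cells and 345 CPM (325 to 366) in Procr+ cells of KO_H, and 330 CPM (265 to 407) in Flt3+ cells and 340 CPM (314 to 367) in Procr+ cells of WT_H. The ratio was 1.30 (1.12 to 1.49) in KO_H and 0.972 (0.770 to 1.21) in WT_H, so the libraries lay on either side of 1. Meis1, a homeobox partner of HOX proteins, had log2 ratios of -0.20 in KO_H and -0.35 in WT_H. Ly6a, which encodes the sorted antigen Sca-1, had -0.28 in KO_H and -0.41 in WT_H, and Angpt1, a ligand of the receptor encoded by Tek, had -0.15 in KO_H and 0.14 in WT_H. None of these passed 1.5-fold.

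**Figure D1:**
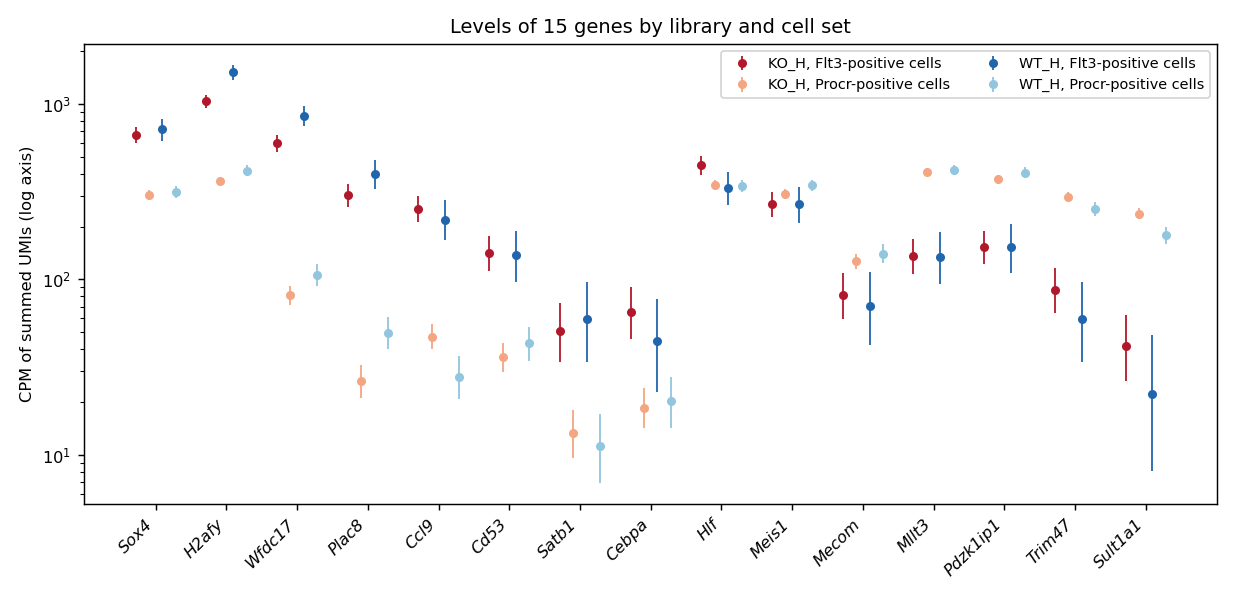
CPM of summed UMIs on a log axis for 15 genes, with exact Poisson 95% intervals, in Flt3-positive and Procr-positive cells of KO_H and of WT_H. The genes on the left, from Sox4 to Cebpa, were higher in Flt3-positive cells of both libraries. Hlf and Meis1 differed by less than 1.5-fold between the sets of each library, and Mllt3 to Sult1a1 were lower in Flt3-positive cells.

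A short set of lymphoid-primed genes was higher in Flt3+ cells. Of 11 counted of 26 in the files, 4 were higher and none was lower, namely Satb1, Cd52, H2afy and Gpr171. The list's median was 0.46 in KO_H and 0.22 in WT_H. Satb1, a chromatin organiser of lymphoid commitment, had 50.8 CPM in Flt3+ cells and 13.4 CPM in Procr+ cells of KO_H, and 59.4 CPM in Flt3+ cells and 11.2 CPM in Procr+ cells of WT_H. The Satb1 ratio was 3.80 (2.27 to 6.26) in KO_H and 5.29 (2.58 to 10.7) in WT_H. H2afy, the histone variant macroH2A1, had 1033 CPM in Flt3+ cells and 362 CPM in Procr+ cells of KO_H, and 1507 CPM in Flt3+ cells and 416 CPM in Procr+ cells of WT_H. It was detected in 91 of 93 Flt3+ cells of KO_H and in all 38 of WT_H.

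Dntt, the template-independent DNA polymerase of antigen receptor rearrangement (chr19:41029275-41059525), had too few UMIs in WT_H to be counted. It had 29 UMIs in 8 of the 93 Flt3+ cells and 3 UMIs in the 568 Procr+ cells of KO_H, and 10 UMIs in 5 of the 38 Flt3+ cells and 5 UMIs in the 292 Procr+ cells of WT_H. A single cell held 13 of the 29 UMIs in KO_H, and without it the ratio to Procr+ cells was 31.6 (9.06 to 169) in place of 56.4 (17.5 to 289). Without the highest Flt3+ cell of WT_H the ratio was 8.52 (2.17 to 35.3) in place of 13.9 (4.33 to 51.8). Il7r, the interleukin-7 receptor, and the recombinase genes Rag1 and Rag2 had 0 UMIs in Flt3+ cells of both libraries. The exact interval of such a zero reaches 6.70 CPM in KO_H and 13.7 CPM in WT_H. Procr+ cells held only 1 Il7r UMI in KO_H and 2 in WT_H. Ebf1 of the same list had 3 UMIs in Flt3+ cells of KO_H and 1 in those of WT_H.

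Myeloid-primed genes were also higher, without the granule enzymes of committed precursors. Of 17 counted of 30, 6 were higher and none was lower: Cebpa, Gfi1, Plac8, Nkg7, Tyrobp and Emb. The list's median was 0.41 in KO_H and 0.50 in WT_H. Cebpa, the transcription factor that drives granulocyte and monocyte fate, had 65.4 CPM in Flt3+ cells and 18.7 CPM in Procr+ cells of KO_H, and 44.6 CPM in Flt3+ cells and 20.3 CPM in Procr+ cells of WT_H. Its ratio was 3.50 (2.25 to 5.38) in KO_H and 2.19 (1.04 to 4.29) in WT_H. Mpo, the peroxidase of neutrophil granules, had 1 UMI in Flt3+ cells of each library, and Elane, neutrophil elastase, had 4 UMIs in KO_H and 0 in WT_H.

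The granule protease gene Prtn3 stood apart from Mpo and Elane. It had 1295 CPM in Flt3+ cells and 1058 CPM in Procr+ cells of KO_H, and 1314 CPM in Flt3+ cells and 966 CPM in Procr+ cells of WT_H. After thinning, 88.2% of Flt3+ cells and 81.4% of Procr+ cells of KO_H had a Prtn3 UMI, and 86.8% of Flt3+ cells and 80.5% of Procr+ cells of WT_H. Jchain-rich cells gave 10.6% in KO_H and 5.66% in WT_H. Before thinning these shares were 97.8%, 95.8% and 37.3% in the Flt3+, Procr+ and Jchain-rich cells of KO_H, and 100%, 96.2% and 16.7% in those of WT_H. Before thinning, a Prtn3 UMI was therefore found in nearly every cell of both sets. The Prtn3 ratio between the sets was 1.22 (1.13 to 1.33) in KO_H and 1.36 (1.21 to 1.53) in WT_H. Jchain UMIs were found, unthinned, in 90.3% of Flt3+ cells of KO_H and 94.7% of those of WT_H. The part of free RNA in the Prtn3 and Jchain shares was not tested.

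Of the 15 genes named as higher by size in both libraries, 3 had the steepest ratios. Plac8, a cysteine-rich protein of haematopoietic cells (chr5:100553725-100572245), had 301 CPM in Flt3+ cells and 26.5 CPM in Procr+ cells of KO_H, and 397 CPM in Flt3+ cells and 49.7 CPM in Procr+ cells of WT_H. Wfdc17, a secreted protein with a WAP domain known from macrophages, had 594 CPM in Flt3+ cells and 81.2 CPM in Procr+ cells of KO_H, and 850 CPM in Flt3+ cells and 106 CPM in Procr+ cells of WT_H. Ccl9, a CC chemokine, had 252 CPM in Flt3+ cells and 47.3 CPM in Procr+ cells of KO_H, and 219 CPM in Flt3+ cells and 27.8 CPM in Procr+ cells of WT_H.

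Many Flt3+ cells held no UMI of these genes. Plac8 was found in 34 of 93 Flt3+ cells of KO_H and 13 of 38 of WT_H, Ccl9 in 40 cells of KO_H and 15 of WT_H, and Wfdc17 in 47 cells of KO_H and 22 of WT_H. The ratio of Plac8 was 11.4 (8.72 to 14.98) in KO_H and 7.99 (5.997 to 10.7) in WT_H, and without the highest Flt3+ cell it was 10.2 in KO_H and 6.03 in WT_H. That of Wfdc17 was 7.31 in KO_H and 7.99 in WT_H, and without the highest cell 6.46 in KO_H and 6.39 in WT_H. Other cells of the gate also had more Plac8 than Procr+ cells. Those without Flt3, Cd34 or Procr UMIs had 222 CPM in KO_H and 233 CPM in WT_H. Those with Flt3, Cd34 and Procr UMIs had 264 CPM in KO_H and 321 CPM in WT_H. Those with Cd34 but neither Flt3 nor Procr UMIs had 69.6 CPM in KO_H and 122 CPM in WT_H. Plac8 UMIs were also frequent in Jchain-rich cells, at 16.8% of thinned cells in KO_H and 15.1% in WT_H against 22.6% and 21.1% of Flt3+ cells, and the part of free RNA in the Plac8 level was not tested.

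The other 12 included surface, cytoskeletal and cell cycle genes. Serpinb1a, an inhibitor of neutrophil serine proteases, had log2 ratios of 2.35 in KO_H and 2.56 in WT_H, and Cd53, a leukocyte tetraspanin, had 1.98 in KO_H and 1.68 in WT_H. Emb (embigin, a partner of lactate transporters) had 1.64 in KO_H and 1.44 in WT_H. Cdk6, the kinase of early G1, had 149 CPM in Flt3+ cells and 69.1 CPM in Procr+ cells of KO_H, and 126 CPM in Flt3+ cells and 55.1 CPM in Procr+ cells of WT_H. Tmsb10, an actin-binding thymosin, had 1.13 in KO_H and 1.08 in WT_H on the log2 scale, and Ramp1, a partner of the receptor for calcitonin gene-related peptide, 1.07 in KO_H and 1.02 in WT_H. H2afy, Sox4, Plppr3, Shisa8, Gm5111 and Mcm6 made up the rest.

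**Figure D2:**
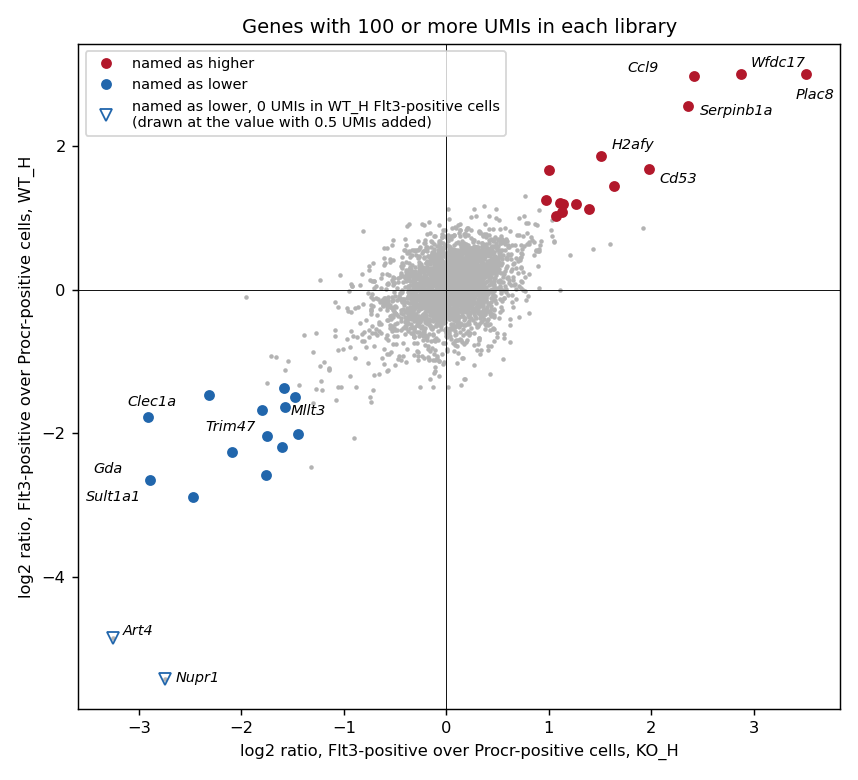
Log2 ratio of Flt3-positive over Procr-positive cells in KO_H (x axis) and in WT_H (y axis) for genes with 100 or more UMIs over both sets in each library, leaving out the genes of the rule. Red points are the 15 genes named as higher and blue symbols the 15 named as lower; open triangles mark Art4 and Nupr1, which had 0 UMIs in Flt3-positive cells of WT_H and whose y value depends on the 0.5 UMIs added.

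Of the 15 genes named as lower, 2 had no UMI in Flt3+ cells of WT_H. Art4, a membrane ADP-ribosyltransferase-like protein, had 3 UMIs in Flt3+ cells and 194 in Procr+ cells of KO_H, and 0 UMIs in Flt3+ cells and 100 in Procr+ cells of WT_H. In WT_H it was at least 4.80-fold lower, taking 3 UMIs over the set as the limit. Nupr1, a stress-induced chromatin protein, had 8 UMIs in Flt3+ cells and 332 in Procr+ cells of KO_H, and 0 in Flt3+ cells and 148 in Procr+ cells of WT_H, at least 7.10-fold lower there. Gda, the guanine deaminase, had log2 ratios of -2.89 in KO_H and -2.66 in WT_H. Tgm2, a transglutaminase, had -2.09 in KO_H and -2.27 in WT_H, and Socs2, an inhibitor of cytokine signalling, -2.31 in KO_H and -1.47 in WT_H. Clec1a, Tcf15, Plk2, Itsn1, Tinagl1, Bex4 and Net1 completed the group with Sult1a1, Trim47 and Mllt3, all lower in both libraries.

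Megakaryocyte-primed genes were lower on balance. Of 14 counted of 19, 5 were lower, among them Vwf, Zfpm1, Nrgn and Mmrn1, and 1, Plek, was higher, with a median of -0.72 in KO_H and -0.62 in WT_H. Vwf is on the stem cell list too. Nrgn, a calmodulin-binding protein of platelets, had 125 CPM in Flt3+ cells and 288 CPM in Procr+ cells of KO_H, and 115 CPM in Flt3+ cells and 236 CPM in Procr+ cells of WT_H. Of 7 erythroid genes counted, Tal1 and Gfi1b, both transcription factors shared with stem cells and megakaryocytes, were lower and none was higher.

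Among 43 transcription factor genes of early haematopoiesis counted, 7 were higher and 4 lower. The higher ones were Ikzf1, Ikzf2, Satb1, Runx3, Cebpa, Gfi1 and Sox4, and the lower ones Foxo1, Gata2, Tal1 and Mycn. Ikzf1 (Ikaros), required for lymphoid development, had 169 CPM in Flt3+ cells and 83.1 CPM in Procr+ cells of KO_H, and 137 CPM in Flt3+ cells and 71.1 CPM in Procr+ cells of WT_H. Mycn had 34.5 CPM in Flt3+ cells and 115 CPM in Procr+ cells of KO_H, and 81.7 CPM in Flt3+ cells and 159 CPM in Procr+ cells of WT_H. Myc lay the other way, with log2 ratios of 0.38 in KO_H and 0.91 in WT_H, below 1.5-fold in KO_H.

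Surface genes used to gate progenitors were set beside 3.69% higher and 3.84% lower of all genes. Of 11 counted, 2 were higher, Cd53 among them, and Slamf1 was lower. Cd48, a SLAM family antigen gained by progenitors, had 11 UMIs in Flt3+ cells and 5 in Procr+ cells of KO_H, and 5 UMIs in Flt3+ cells and 5 in Procr+ cells of WT_H, over many more Procr+ cells. Thinned Cd48 shares were 4.30% of Flt3+ cells and 0.537% of Procr+ cells of KO_H, but 11.2% of its Jchain-rich cells, and unthinned 10.8%, 0.880% and 31.1% in the same sets. In WT_H they were 2.63% of Flt3+ cells, 0.685% of Procr+ cells and 20.8% of Jchain-rich cells, and unthinned 10.5%, 1.71% and 47.2%. The Cd48 share of Flt3+ cells was thus below that of Jchain-rich cells, and the part of free RNA in it was not tested. Cd27, a co-stimulatory receptor, and Kit, the receptor for stem cell factor, did not pass 1.5-fold in both libraries.

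Cytokine receptor and homing genes were counted next, beside 3.69% higher and 3.84% lower of all genes. Of 21 cytokine receptor genes counted, Tnfrsf13c, the receptor for the B cell factor BAFF, was higher, and 2 were lower, among them Il6st, the shared interleukin-6 signal transducer. Of 13 homing and migration genes counted, 1 was higher and 2, the junctional adhesion molecules Esam and Jam3, were lower. Csf3r, the granulocyte colony-stimulating factor receptor, had log2 ratios of 1.54 in KO_H and 0.50 in WT_H and so missed 1.5-fold in WT_H.

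Genes of DNA replication were higher in Flt3+ cells although cells with 3 or more UMIs of mitotic genes had been set aside in both sets. Cells with fewer were kept, and Top2a, a topoisomerase of dividing cells, had 9 UMIs in Flt3+ cells and 28 in Procr+ cells of KO_H, and 3 in Flt3+ cells and 12 in Procr+ cells of WT_H. Of 20 S phase genes counted, 7 were higher and none lower: Mcm3, Mcm4, Mcm5 and Mcm6 of the replicative helicase, Tyms and Rrm1 of nucleotide synthesis, and Rfc2 of the clamp loader. The list's median was 0.47 in KO_H and 0.92 in WT_H. Mcm6 had 74.4 CPM in Flt3+ cells and 38.3 CPM in Procr+ cells of KO_H, and 104 CPM in Flt3+ cells and 44.4 CPM in Procr+ cells of WT_H. Of 15 growth entry genes counted, Cdk6 was higher and Ccnd2, a D-type cyclin, was lower.

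Immediate-early genes, which are switched on within minutes of a stimulus and also by tissue dissociation, were lower in Flt3+ cells: 5 of 25 counted, namely Fosb, Fosl2, Egr1, Nr4a2 and Klf4, and none was higher. The list's median was -0.39 in KO_H and -0.37 in WT_H, and its summed level was 7297 CPM in Flt3+ cells and 9582 CPM in Procr+ cells of KO_H, and 4961 CPM in Flt3+ cells and 6680 CPM in Procr+ cells of WT_H. Of 10 endothelial markers counted, Tek, Cldn5, Vwf and Esam, which stem cells also transcribe in part, were lower. None of the counted dendritic cell, MHC class II, heat shock, Notch pathway or Id and E protein genes passed 1.5-fold in both libraries. Among 26 interferon response genes counted only Iigp1 did and was lower, and among 12 MHC class I genes only Tap2, a peptide transporter subunit, and it was higher.

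Markers of other cell types were present at differing levels. Neutrophil precursor markers summed to 1360 CPM in Flt3+ cells and 1125 CPM in Procr+ cells of KO_H, and to 1344 CPM in Flt3+ cells and 1016 CPM in Procr+ cells of WT_H, nearly all of it Prtn3, with 2 of 12 at 0 in Flt3+ cells of KO_H and 6 in those of WT_H. Monocyte markers summed to 505 CPM in Flt3+ cells and 473 CPM in Procr+ cells of KO_H, and to 538 CPM in Flt3+ cells and 523 CPM in Procr+ cells of WT_H, with Lyz2, the lysozyme of myeloid cells, as the highest. Plasmacytoid dendritic cell markers outside the rule summed to 321 CPM in Flt3+ cells and 313 CPM in Procr+ cells of KO_H, and to 353 CPM in Flt3+ cells and 321 CPM in Procr+ cells of WT_H, with Bst2, which many cells transcribe, as the highest. The part of such cells or of their free RNA in the levels above was not tested. T and NK cell markers summed to 92.6 CPM in Flt3+ cells and 63.2 CPM in Procr+ cells of KO_H, and 119 CPM in Flt3+ cells and 40.1 CPM in Procr+ cells of WT_H, most of it Nkg7, with 4 of 10 at 0 in Flt3+ cells of KO_H and 7 in those of WT_H, Cd4, Cd8a, Ncr1 and Gzma in both. Plasma cell and B cell markers outside the rule summed to 183 CPM in Flt3+ cells and 189 CPM in Procr+ cells of KO_H, and to 245 CPM in Flt3+ cells and 222 CPM in Procr+ cells of WT_H. Basophil and mast cell markers reached 5.45 CPM in Flt3+ cells of KO_H and 22.3 CPM in those of WT_H, with 9 and 6 of 10 at 0.

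Primed genes were also counted cell by cell. Each cell was thinned to 2000 UMIs and scored for 9 lymphoid genes, 10 myeloid genes and 8 stem cell genes. A thinned Flt3+ cell held on average 0.398 lymphoid and 0.538 myeloid UMIs in KO_H and 0.579 lymphoid and 0.526 myeloid UMIs in WT_H. At such levels a cell can lack a UMI by sampling alone, so the split below does not show that the Flt3+ cells differed from each other. In KO_H, 15 of 93 cells had lymphoid UMIs only, 21 myeloid only, 12 both and 45 neither. In WT_H, 5 of 38 cells had lymphoid UMIs only, 6 myeloid only, 7 both and 20 neither. Both kinds together were found in 12.9% (6.85 to 21.5) of Flt3+ cells and 0.894% (0.291 to 2.07) of Procr+ cells of KO_H, and in 18.4% (7.74 to 34.3) of Flt3+ cells and 1.71% (0.558 to 3.95) of Procr+ cells of WT_H.

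Cd52 and Tyrobp of these panels are also transcribed by other leukocytes, and a UMI in a thinned cell may be free RNA, whose part was not tested. Dntt and Cebpa were found together in 1 Flt3+ cell of KO_H and in none of WT_H, where up to 7.89% could go unseen. A stem cell gene was present in 63.4% (52.8 to 73.2) of Flt3+ cells and 90.7% (88.0 to 93.0) of Procr+ cells of KO_H, and in 57.9% (40.8 to 73.7) of Flt3+ cells and 89.4% (85.3 to 92.7) of Procr+ cells of WT_H. The stem cell panel held 6 UMIs at most in a thinned Flt3+ cell of KO_H and 5 in WT_H, against 14 and 11 in Procr+ cells of KO_H and WT_H.

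**Figure D3:**
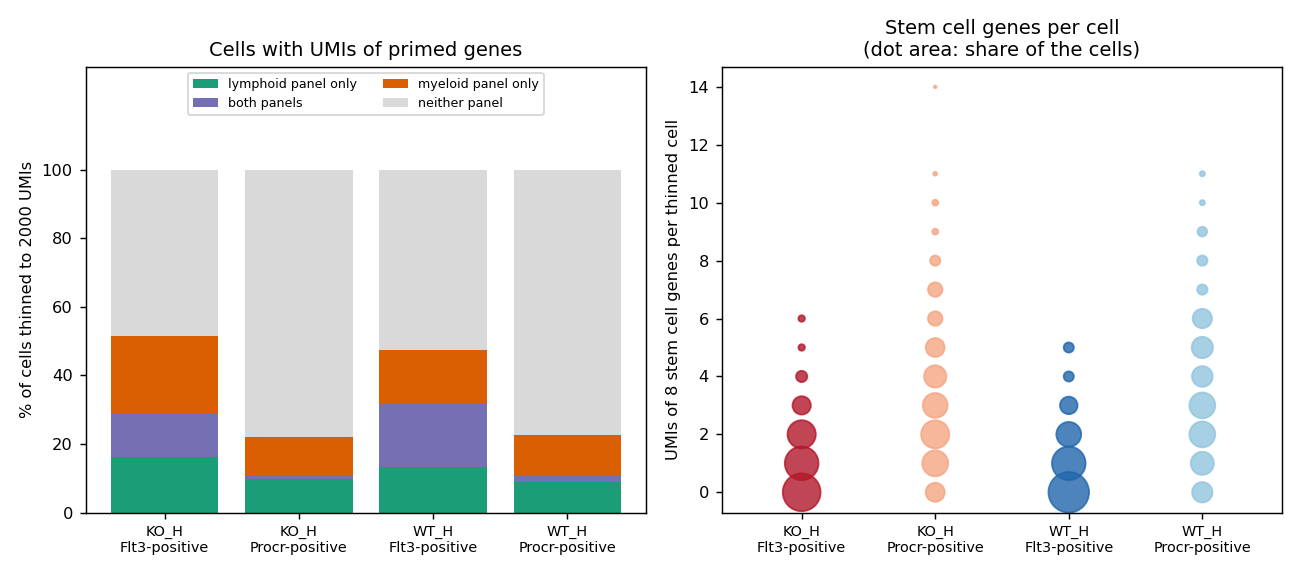
Left, percent of cells thinned to 2000 UMIs with UMIs of the lymphoid panel only, both panels, the myeloid panel only or neither, in Flt3-positive and Procr-positive cells of KO_H and WT_H. Right, UMIs of 8 stem cell genes per thinned cell, with dot area giving the share of cells; the median was 1 in Flt3-positive cells and 3 in Procr-positive cells of both libraries.

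The Flt3+ cells were then split by their number of Flt3 UMIs. Among Flt3+ cells of KO_H, 34 held at least 2 Flt3 UMIs and 59 held 1; in WT_H the numbers were 12 and 26. Median depth was 6235.5 UMIs in the cells with at least 2 and 5611 in those with 1 in KO_H, and 8354 and 6480.5 in WT_H, so depth moved with the split and its part was not tested. Wfdc17 had 1168 CPM (1030 to 1320) in cells with at least 2 Flt3 UMIs and 209 CPM (163 to 265) in cells with 1 in KO_H, and 1483 CPM (1254 to 1742) in cells with at least 2 and 478 CPM (379 to 594) in cells with 1 in WT_H. The intervals were apart in both libraries, but they cover counting error only and not the spread between cells. A single cell held 42 of the 327 Wfdc17 UMIs in Flt3+ cells of KO_H and 50 of the 229 in WT_H. The split used the Flt3 UMIs that also chose the cells, so it is a description.

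Plac8, H2afy and Dntt, which are on the primed lists, took the same order. Plac8 had 512 CPM in cells with at least 2 Flt3 UMIs and 161 CPM in cells with 1 in KO_H, and 702 CPM in cells with at least 2 and 218 CPM in cells with 1 in WT_H. H2afy had 1517 CPM in cells with at least 2 and 709 CPM in cells with 1 in KO_H, and 2506 CPM in cells with at least 2 and 920.1 CPM in cells with 1 in WT_H. Dntt had 23 UMIs in the cells with at least 2 and 6 UMIs in those with 1 in KO_H, and 9 UMIs and 1 UMI in the same cells of WT_H.

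Mllt3 and Pdzk1ip1 ran the opposite way. Mllt3 had 86.0 CPM (51.8 to 134) in cells with at least 2 Flt3 UMIs and 170 CPM (128 to 220) in cells with 1 in KO_H, and 30.1 CPM (6.20 to 87.9) in cells with at least 2 and 195 CPM (134 to 273) in cells with 1 in WT_H; the intervals overlapped in KO_H only. Pdzk1ip1, a small membrane protein of stem cells, had 95.1 CPM in cells with at least 2 and 191 CPM in cells with 1 in KO_H, and 80.2 CPM in cells with at least 2 and 195 CPM in cells with 1 in WT_H. The Pdzk1ip1 intervals overlapped in WT_H only. Hlf had 398 CPM in cells with at least 2 and 479 CPM in cells with 1 in KO_H, and 301 CPM in cells with at least 2 and 348 CPM in cells with 1 in WT_H, lower in both with overlapping intervals. Mecom had 81.5 CPM in cells with at least 2 and 81.9 CPM in cells with 1 in KO_H, and 60.1 CPM in cells with at least 2 and 76.7 CPM in cells with 1 in WT_H, and its intervals overlapped too.

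Cells just outside the rule lay between the sets for Mllt3 and H2afy. In KO_H 104 cells and in WT_H 52 cells held Flt3, Cd34 and Procr UMIs and met the other limits. Their Mllt3 level was 189 CPM in KO_H and 201 CPM in WT_H, and their H2afy level 828 CPM in KO_H and 1089 CPM in WT_H, each between the levels of Flt3+ and Procr+ cells. Wfdc17 had 594 CPM (531 to 662) in Flt3+ cells and 653 CPM (595 to 716) in these cells of KO_H, and 850 CPM (744 to 968) in Flt3+ cells and 622 CPM (544 to 708) in these cells of WT_H. Cdk6, Cd53 and Cebpa lay between the sets in KO_H only. In WT_H they had 163, 144 and 78.8 CPM in these cells, above the 126, 137 and 44.6 CPM of Flt3+ cells, with overlapping intervals. Mecom, at 74.5 CPM in these cells of KO_H, was below both sets there, and at 125 CPM in WT_H it lay between them. Cells with Cd34 but neither Flt3 nor Procr UMIs, 214 in KO_H and 79 in WT_H, had Mllt3 at 284 CPM in KO_H and 228 CPM in WT_H. Dntt had 3 UMIs in those of KO_H and 0 in those of WT_H.

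**Figure D4:**
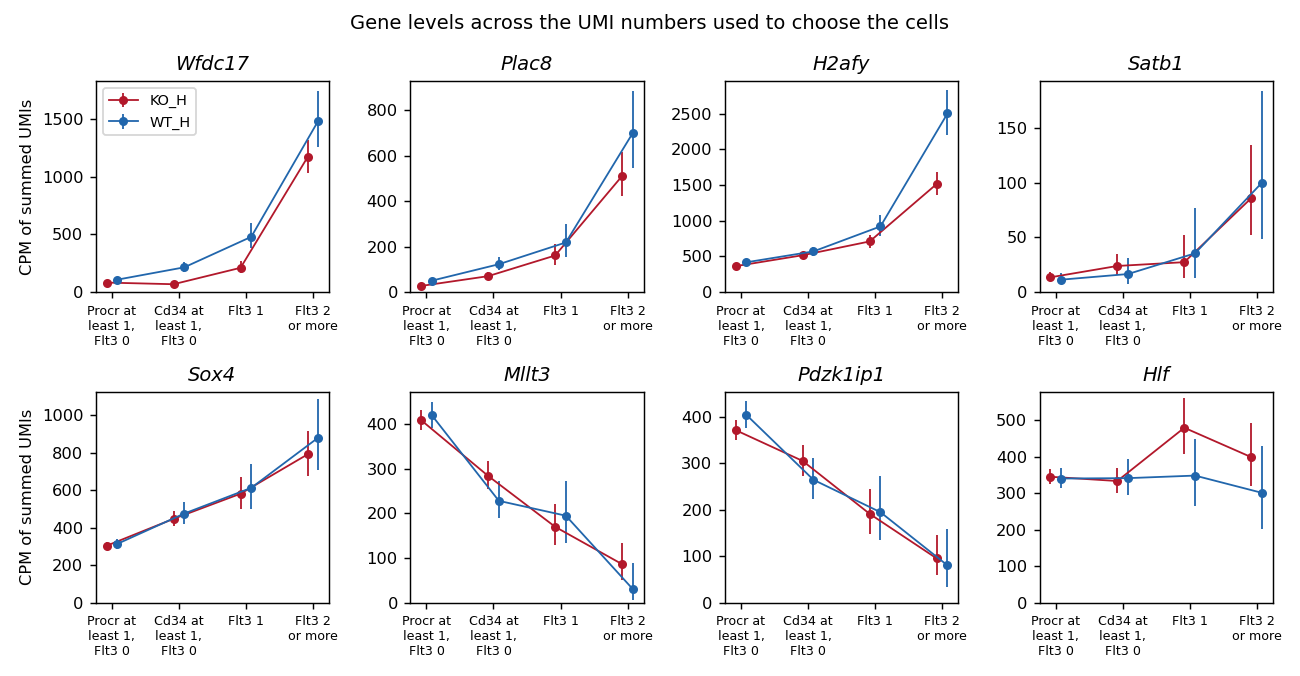
CPM of summed UMIs for 8 genes, with exact Poisson 95% intervals, in 4 cell sets ordered by their Procr, Cd34 and Flt3 UMIs, for KO_H (red) and WT_H (blue); the 2 sets on the right of each panel are the Flt3-positive cells. Wfdc17, Plac8, H2afy, Satb1 and Sox4 were highest in cells with at least 2 Flt3 UMIs, Mllt3 and Pdzk1ip1 were lowest there, and Hlf kept overlapping intervals between those 2 sets.

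The library labels were then compared within Flt3+ cells. The targeted genes came first. Id3, an inhibitor of E protein transcription factors (chr4:136143497-136145755), had 79.9 CPM (58.0 to 107) in Flt3+ cells of KO_H and 29.7 CPM (12.8 to 58.5) in those of WT_H, so it was higher in the library labelled knockout. The UMIs behind these levels were 44 in KO_H and 8 in WT_H. In Procr+ cells it had 91.5 CPM in KO_H and 29.9 CPM in WT_H. The labels do not state which part of Id3 is disrupted, and a 3′ count outside a deleted part would not register it. Whether the labels of the libraries were exchanged was not tested, and an exchange would turn round every direction of KO_H over WT_H given here.

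Id1, whose deletion depends on Cdh5-CreER, had 1 UMI in Flt3+ cells of KO_H and 0 in those of WT_H, too few for a direction. Among Xist-bearing Flt3+ cells without Y-linked UMIs, Id3 had 6 UMIs in 11 cells of KO_H and 0 UMIs in 11 cells of WT_H. Among Y-bearing cells without Xist UMIs it had 85.4 CPM (57.2 to 123) in 55 cells of KO_H and 42.2 CPM (15.5 to 91.9) in 20 cells of WT_H. Since Id3 goes against the labels, the directions that follow compare the library labelled knockout with the library labelled WT.

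Over 5227 genes with at least 20 UMIs, 508 (9.72%) were at least 1.5-fold higher and 620 (11.9%) at least 1.5-fold lower in Flt3+ cells of KO_H, with a median log2 ratio of -0.07, or 0.04 with median-of-ratios scaling. Xist, which female cells transcribe, had 336 CPM in Flt3+ cells of KO_H and 616 CPM in those of WT_H, and the part of this difference in sex mix in other genes was not tested. In Procr+ cells of the same libraries 5.61% of 10198 genes were higher and 5.22% lower. With 93 against 38 cells, most ratios in Flt3+ cells have wide intervals, and 4 genes with at least 100 UMIs had an interval wholly past 1.5-fold. Klf2, a transcription factor of quiescence and migration in leukocytes, had 403 CPM (352 to 460) in Flt3+ cells of KO_H and 193 CPM (144 to 253) in those of WT_H. A single cell held 31 of the 222 Klf2 UMIs in KO_H, and a single cell 14 of the 52 in WT_H. After thinning, 35.5% (25.8 to 46.1) of Flt3+ cells of KO_H had a Klf2 UMI. In WT_H the thinned Klf2 share was 26.3% (13.4 to 43.1), and the intervals of the shares overlapped. Serinc3, a membrane protein of the serine incorporator family, had 271 CPM (229 to 318) in KO_H and 553 CPM (468 to 650) in WT_H.

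The other 2 were the ribosomal protein genes Rpl23a and Rpl35, with log2 ratios of 1.20 and 0.80. Both families have processed pseudogenes that can share reads, so their levels are uncertain. All 4 genes had the same direction in Procr+ cells, with log2 ratios of 0.98 for Klf2, -0.92 for Serinc3, 0.93 for Rpl23a and 0.75 for Rpl35. The Serinc3 level was 299 CPM in 11 Xist-bearing cells of KO_H and 605 CPM in 11 such cells of WT_H, and 247 CPM in 55 Y-bearing cells of KO_H and 493 CPM in 20 such cells of WT_H, so the difference was present in cells of either sex.

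Immediate-early genes were higher in Flt3+ cells of KO_H. Of 23 counted, 10 were higher and none lower, beside 9.72% of all genes, with a median log2 ratio of 0.46. They were Jun, Junb, Jund, Egr1, Ier5, Nr4a1, Klf2, Klf6, Btg2 and Cebpb, and the interval held 1 for Egr1 and Ier5. Junb, a subunit of the AP-1 factor, had 864 CPM in KO_H and 475 CPM in WT_H, and Jund had 801 CPM in KO_H and 486 CPM in WT_H. Cebpb, a transcription factor of emergency granulopoiesis, had 125 CPM (97.5 to 159; 69 UMIs) in KO_H and 29.7 CPM (12.8 to 58.5; 8 UMIs) in WT_H.

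The list also differed in Procr+ cells of the same libraries: 11 of 26 counted were higher in KO_H and none lower, with a median of 0.53. Of the 23 genes counted in both sets, 7 were higher in both and none was lower in both, beside 0.632% higher and 0.517% lower of 5222 genes. The sets share their libraries, so this is not a second measurement of the genotype. The library and the genotype cannot be told apart with 1 library each.

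S phase genes were lower in Flt3+ cells of KO_H: 6 of 14 counted, namely Mcm5, Mcm7, Pcna, Dut, Tipin and Fen1, and none higher, beside 11.9% of all genes. Their median log2 ratio was -0.50. Dut, the dUTPase, had 74.4 CPM in KO_H and 134 CPM in WT_H, with a ratio of 0.557 (0.347 to 0.897), while Mcm5 rested on 15 UMIs in KO_H and 14 in WT_H and had an interval of 0.236 to 1.17. The intervals of the other 5 all reached 1, so Dut alone lay below it. In Procr+ cells 2 of 22 were higher and 1 lower with a median of -0.08. The difference between the 2 sets was not tested.

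Cytokine receptor genes were higher in Flt3+ cells of KO_H for 5 of 14 counted (Kit, Csf2ra, Csf3r, Tgfbr2 and Il4ra) and lower for none, beside 9.72% of all genes higher, with a median of 0.43. In Procr+ cells none of 24 counted passed 1.5-fold, with a median of -0.03, and the difference between the sets was not tested. Kit had 169 CPM in KO_H and 96.5 CPM in WT_H, a ratio of 1.75 (1.12 to 2.82), and Csf2ra, a receptor chain for granulocyte-macrophage colony-stimulating factor, rested on 33 UMIs in KO_H and 6 in WT_H. Of 4 Id and E protein genes counted, Id3, Tcf3 and Tcf12 were higher, with log2 ratios of 0.61 for Tcf3 and 0.66 for Tcf12 and intervals that held 1 for both. Stem cell genes had 3 of 21 higher and 3 lower, and myeloid-primed genes 2 of 16 higher and 2 lower. These counts stand beside 9.72% higher and 11.9% lower of all genes and are not read as a result about either list. Lymphoid-primed genes had none of 9 past 1.5-fold (H2afy had a ratio of 0.685, 0.602 to 0.780). H2-Q4, a class I histocompatibility gene with near-identical neighbours, had 151 CPM in KO_H and 74.3 CPM in WT_H.

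**Figure D5:**
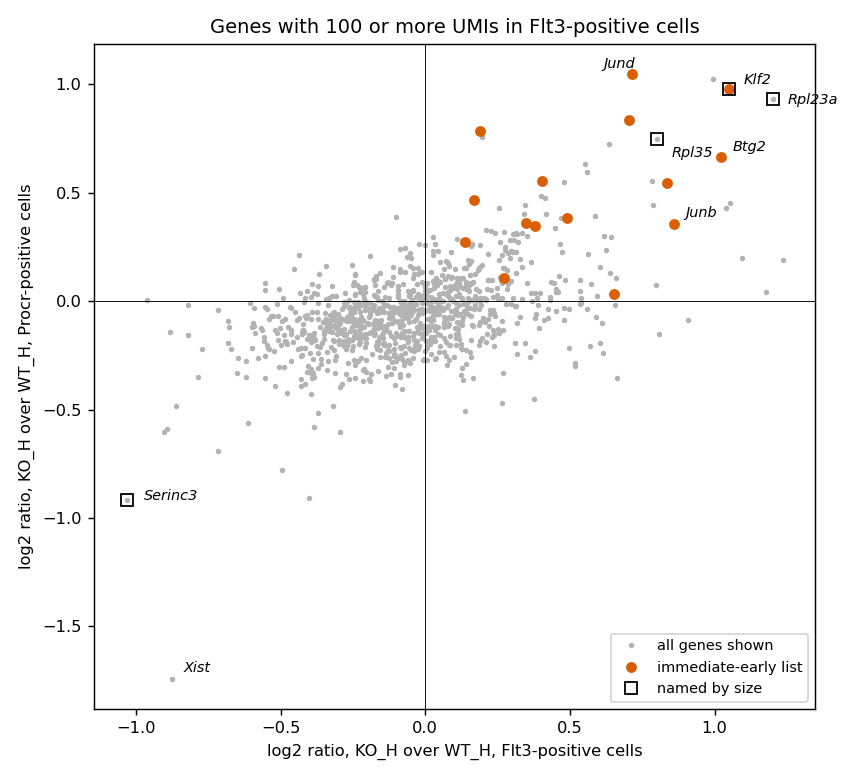
Log2 ratio of KO_H over WT_H in Flt3-positive cells (x axis) and in Procr-positive cells (y axis) for genes with 100 or more UMIs over the Flt3-positive cells of both libraries, leaving out the genes of the rule. Orange points are the genes of the immediate-early list with that many UMIs, which lie to the right of 0 in Flt3-positive cells and above 0 in Procr-positive cells, and squares mark the 4 genes named by size.

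The rule was applied to the sinusoidal gate for comparison. It held for 7 of 553 cells of KO_S (1.27%, 0.510 to 2.59) and for 0 of 351 cells of WT_S, where a share of up to 0.855% could go unseen. The 7 cells had a median of 15291 UMIs, near the 15428 UMIs of all KO_S cells, but were of another kind by their transcripts. Elane had 6579.7 CPM, Mpo 4219 CPM and Ctsg, the granule protease cathepsin G, 2861 CPM in them, against 7.26, 1.82 and 1.82 CPM in Flt3+ cells of KO_H. In the 7 cells Ly6a had 1 UMI, Dntt and Mecom had 0, and Hlf had 3 UMIs. The rule thus selected cells with granulocyte precursor transcripts in KO_S, and the account above holds for the Sca-1-positive gate.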

How the data were processed

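Each of the 4 libraries came as a deposited matrix of raw counts (UMIs per gene and cell barcode, 27998 genes), unit counts per the file headers. Cell Ranger, Seurat and the build mm10 are named in the submitters' processing notes, without versions. The cell filter asked for 200 or more detected genes and for mitochondrial genes below 10% of the UMIs. No doublet caller was run; in an alternative, cells that carried Xist together with Y-linked UMIs were left out. Raw counts were summed per library and cell set, scaled to CPM (per 1000000 UMIs), and compared as log2 ratios with 0.5 UMIs added to each sum. Intervals are 95% exact: Poisson for sums, conditional binomial for ratios (without the 0.5 UMIs) and Clopper-Pearson for shares. A share of 0 is given with the limit of 3 counts. Shares of cells with a UMI used cells thinned to 2000 UMIs; 9 Procr+ cells of KO_H and no Flt3+ cell were shallower. The 18 genes of the rule stayed out of all gene counts and lists.

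The cells, the 32 gene lists and the comparisons were chosen with earlier results of these data known. Of 489 listed symbols, 8 were not matched. Some list members are counted but not reported here by name. Genes named by size were the 15 per direction with 100 or more UMIs over both cell sets in each library, the same direction in both and the largest value of the smaller absolute log2 ratio (outside mitochondrial and ribosomal protein genes), and, between labels, up to 12 per direction with 100 or more UMIs and an interval past 1.5-fold; members of the lists are named with their values. Positions are from GENCODE for mm10. The scripts used Python 3.11.15, numpy 2.4.6, scipy 1.17.1 and pandas 2.3.3 and were tested on simulated data. Alternatives changed the cell filter, the Flt3 and Cd34 minimum, the comparison cells, the depth, the scaling and the UMI minimum.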

Additional observations from a re-analysis of the deposited data

Results flagged for a closer look

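Cd74, the invariant chain of MHC class II molecules, differed between KO_H and WT_H in opposite directions in the 2 cell sets. In Flt3+ cells it had 358 CPM in KO_H and 249 CPM in WT_H, a log2 ratio of 0.52 and a ratio of 1.44 (1.08 to 1.93). In Procr+ cells it had 402 CPM in KO_H and 490 CPM in WT_H, a log2 ratio of -0.28 and a ratio of 0.821 (0.754 to 0.895). Neither ratio passed 1.5-fold, the sets had 1 library per genotype, and the difference between them was not tested.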

How the results depend on the processing

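No paired analysis was possible because there was 1 library per group and no test. The choice of cells and of UMI minimum set the counts. With at least 2 Flt3 UMIs required, the share was 1.83% in KO_H and 1.49% in WT_H, and 580 genes were higher and 479 lower than in Procr+ cells in both libraries, with 334 genes higher in KO_H than in WT_H. With Cd34 not required, the shares were 6.95% and 6.45%. Against Procr+ cells that also had Cd34, 183 genes were higher and 158 lower. In cells thinned to 2000 UMIs, 155 genes were lower than in Procr+ cells, and 224 were higher and 290 lower in KO_H than in WT_H. With no UMI minimum, 1376 genes were higher and 591 lower than in Procr+ cells, and 2107 higher and 2789 lower in KO_H. With a minimum of 100 UMIs, these were 52, 69, 35 and 29. The number of genes counted changed as well. Between labels in Flt3+ cells it was 5227 in the main setting, 12470 with no minimum and 1057 with 100 UMIs. It was 1926 after thinning and 2438 with at least 2 Flt3 UMIs. The median of the T and NK cell markers in KO_H, over 3 genes, was -0.017 against Procr+ cells with Cd34 and -1.53 against all other cells, in place of 0.72. The cause of these changes was not tested beyond the number of cells and genes each setting leaves. The cell filter, cells with Xist and Y-linked UMIs and the scaling moved no share and no count of genes by over 1.5 times. Leaving out the cell with most UMIs of each of 7 genes was chosen after seeing the data, and kept every direction. The 38 cells of WT_H limit what can be seen at low levels. A gene with no UMI there may reach 11.1 CPM by the limit of 3 UMIs, or 13.7 CPM by its exact interval.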
